A study of Homo sapiens with 10 samples.

Results

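The genes followed here organise or silence the clustered protocadherin loci, and they were compared between human RPE p53-/- cells labelled CCAR1 knockout and their parental cells. The 10 genes were chosen by name as chromatin regulators of these loci, and all 10 were found among the 62700 genes of the deposited table and passed the filter on low counts. They are the cohesin subunits SMC1A, SMC3 and RAD21, the cohesin loader NIPBL and release factor WAPL, the insulator protein CTCF and its paralog CTCFL, and the silencers SETDB1, TRIM28 and SMCHD1. Polyadenylated RNA was sequenced from 5 CCAR1 knockout and 5 parental samples of the same line, which was derived from retinal pigment epithelium and lacks p53 in both groups. CCAR1, a splicing factor per the title of the series, was the edited gene, and the comparison asks what its knockout changes across the genome. All cells grew in DMEM/F12 with 10% fetal bovine serum. The labels do not say whether the knockout cells are a single clone or whether replicates were separate cultures, so the p-values rest on a spread among samples that may be technical only.

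Cohesin is a ring that holds DNA inside it. SMC1A and SMC3 are its rod-like ATPase arms and RAD21 is the kleisin that closes it. NIPBL loads the ring and drives loop extrusion, WAPL opens it, and CTCF bound to DNA stops its progress. At the protocadherin clusters, CTCF and cohesin bring a distant enhancer to the promoter of the isoform that is used, while repressive chromatin keeps the other promoters silent. SETDB1 writes the repressive mark H3K9me3, TRIM28 brings it to DNA through zinc finger proteins, and SMCHD1 is a divergent SMC-type protein needed to silence clustered genes.

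Replicates 1 to 3 of both genotypes held 52.6 to 65.2 M counts per library (M, 1e6 counts) and replicates 4 and 5 held 320.6 to 385.4 M, and these are called the shallow and the deep libraries. Levels are counts per 1e6 of the scaled library size (CPM). The edited gene, CCAR1, was at 106 ± 18.5 CPM in knockout and 148 ± 23.5 CPM in parental cells (SD, n = 5 each), a log2 fold change of -0.48 (edgeR adjusted p = 0.0201). The knockout mean was 71.4% of the parental mean, so most of the transcript was still counted in knockout cells, and in each depth class every knockout library was below every parental one. With the median of chromosome 10 subtracted its log2 fold change was -0.31 and the call was lost (edgeR adjusted p = 0.121). The call was also lost with library size alone as the scale (edgeR adjusted p = 0.0525) and without parental replicate 5 (edgeR adjusted p = 0.0504). Of 15 retinal pigment epithelium markers, 8 were under 1 CPM in every library, among them RPE65, RLBP1 and TYR, while KRT8, KRT18, MITF and OTX2 were present. Shallow libraries also held skeletal muscle transcripts, with the 10 genes measured summing to 231 to 527 CPM in knockout and 455 to 600.2 CPM in parental shallow libraries. In the deep libraries the same sum was 9.33 to 9.66 CPM in knockout and 7.73 to 8.42 CPM in parental cells. The 8 liver markers summed to 64.3 to 114 CPM in knockout and 43.0 to 119 CPM in parental shallow libraries, and to 3.18 to 3.19 CPM in knockout and 1.92 to 2.46 CPM in parental deep libraries. The 8 erythroid markers summed to 47.7 to 189.9 CPM in knockout and 36.1 to 126 CPM in parental shallow libraries, and stayed under 1 CPM in the deep ones. The part of these transcripts in the results below was not tested. Several regulators differed between shallow and deep libraries, so values are also given within each class.

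Promoters of both cohesin arms and of SETDB1 are shown because SMC1A was called lower and SETDB1 higher in knockout cells. SMC3, the other arm, was lower within each depth class but did not pass over all libraries (edgeR adjusted p = 0.0660). RefSeq promoters of the GRCh38.p14 build were matched for 8 of the 10 genes, and the 250 bases before each start are printed 5′ to 3′ on the gene's strand. SMC1A lies at chrX:53422729-53422978 on the minus strand, SMC3 at chr10:110567445-110567694 on the plus strand and SETDB1 at chr1:150926013-150926262 on the plus strand.
SMC1A: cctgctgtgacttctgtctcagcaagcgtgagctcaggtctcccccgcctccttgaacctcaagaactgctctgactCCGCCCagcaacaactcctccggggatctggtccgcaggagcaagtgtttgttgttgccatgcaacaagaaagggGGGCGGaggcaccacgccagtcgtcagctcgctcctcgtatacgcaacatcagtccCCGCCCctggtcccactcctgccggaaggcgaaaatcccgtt
SMC3: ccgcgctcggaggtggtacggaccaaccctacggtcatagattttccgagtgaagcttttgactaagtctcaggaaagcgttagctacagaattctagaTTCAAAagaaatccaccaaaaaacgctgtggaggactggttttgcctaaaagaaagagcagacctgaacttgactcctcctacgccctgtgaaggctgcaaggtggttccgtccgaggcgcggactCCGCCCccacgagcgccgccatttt
SETDB1: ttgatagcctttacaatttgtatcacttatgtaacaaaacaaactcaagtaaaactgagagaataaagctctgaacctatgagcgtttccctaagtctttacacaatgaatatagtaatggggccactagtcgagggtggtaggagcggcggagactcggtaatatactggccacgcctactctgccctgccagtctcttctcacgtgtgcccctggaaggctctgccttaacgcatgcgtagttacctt
Capitals mark the GC box (GGGCGG) and the cell cycle element CHR (TTTGAA), each on either strand. SMC1A held 3 GC boxes, and SMC3 held 1 GC box and 1 CHR match. None of the matches overlapped another motif. The CCAAT box (CCAAT) and the E2F letters TTTGGCGC or TTTCGCGC were also searched on both strands and had no match in these 3 windows, and SETDB1 held none of the motifs. In the other promoters matched, GC boxes numbered 2 in CTCF, 1 in NIPBL, 1 in WAPL, 4 in SMCHD1 and 3 in CTCFL. CTCF also held 1 CHR match, NIPBL 1 E2F match and WAPL 2 CCAAT boxes. Among 27305 promoters of the same length, 42.3% held a GC box, 13.6% a CHR match, 33.0% a CCAAT box and 0.996% an E2F match. The windows held 15 CpG dinucleotides in SMC1A, 17 in SMC3 and 9 in SETDB1, against a median of 11 over all promoters. A match describes the letters and shows no binding.

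SMC1A (ENSG00000072501.19, chromosome X, 53374149 to 53422728, hg38, as for all positions) was the regulator with the smallest adjusted p, and it was lower in every knockout library. SMC1A was at 181, 173, 167, 201 and 208 CPM in knockout replicates 1 to 5, against 254, 262, 261, 288 and 284 CPM in parental replicates 1 to 5. The highest knockout library lay below the lowest parental one, and the mean was 69.0% of the parental level. SMC1A fell by 0.54 ± 0.075 on the log2 scale (fold change ± standard error, as in all such values; edgeR quasi-likelihood test, adjusted p = 2.72e-04 over 18979 genes). An exact permutation of its log2 CPM, two-sided, gave p = 0.00794, the smallest that 5 against 5 libraries allow. In bulk RNA, fewer cells with the transcript and less of it per cell cannot be told apart.

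SMC3 (ENSG00000108055.11, chromosome 10, 110567691 to 110604636), the other arm, was lower in each depth class. SMC3 was at 147, 147, 141, 216 and 215 CPM in knockout replicates, against 199, 206, 202, 285 and 289 CPM in parental replicates. Deep knockout libraries reached above shallow parental ones, so the genotypes overlapped when pooled but not within either class. Its log2 fold change of -0.45 ± 0.17 did not pass over all libraries (edgeR adjusted p = 0.0660). With the replicate number as a block, which takes up the depth difference, it fell by 0.45 on the log2 scale (edgeR adjusted p = 2.89e-06). With each library left out in turn and no block, SMC3 passed only without knockout replicate 4 or knockout replicate 5. Its log2 fold change was then -0.54 in both fits (edgeR adjusted p = 0.0339 and 0.0361). Without parental replicate 4 or parental replicate 5 it was -0.37 in both fits and did not pass. SMC3 was higher in the deep libraries of both genotypes, and leaving out a deep library unbalances depth between the genotypes. These removals therefore cannot tell genotype from depth.

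RAD21 (ENSG00000164754.16, chromosome 8, 116845935 to 116874866), the kleisin, showed a smaller difference. RAD21 was at 280.3, 277, 251, 373 and 375 CPM in knockout replicates, against 339, 322, 326, 449.9 and 449 CPM in parental replicates. Its knockout libraries were below the parental ones in each class and overlapped them when pooled. The difference of -0.28 ± 0.15 on the log2 scale did not pass (edgeR adjusted p = 0.188), and passed with the replicate block (-0.28 ± 0.038, edgeR adjusted p = 1.34e-04). RAD21 shares 518 exon bases with UTP23 on the opposite strand, which had a mean of 24.3 CPM.

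**Figure D1:**
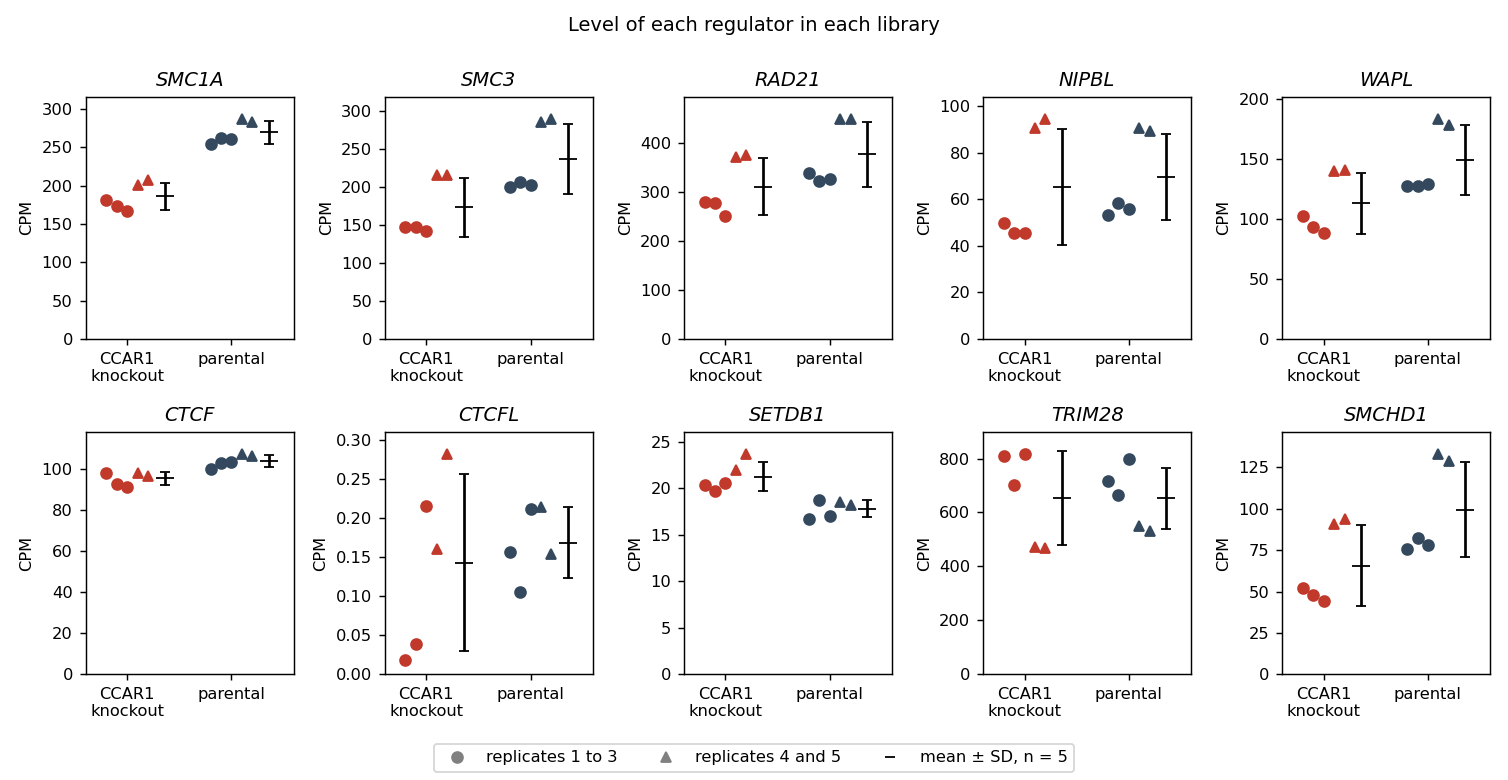
CPM of each regulator in each library, CCAR1 knockout left of parental, with circles for replicates 1 to 3, triangles for replicates 4 and 5, and the mean ± SD (n = 5) as a black bar; axes start at 0. SMC1A, CTCF and SETDB1 have no overlap between genotypes, while SMC3, RAD21, WAPL and SMCHD1 are apart only within a depth class.

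The release factor WAPL (ENSG00000062650.20, chromosome 10, 86435256 to 86521815) was lower in both depth classes, and the loader NIPBL (ENSG00000164190.19, chromosome 5, 36876759 to 37066413) was not. WAPL was at 102, 93.4, 88.4, 139.9 and 140.4 CPM in knockout replicates, against 127, 127, 129, 183 and 178 CPM in parental replicates. Every knockout library of WAPL was below the parental libraries of its class. On the log2 scale WAPL differed by -0.40 ± 0.17 over all libraries (edgeR adjusted p = 0.0992), and with the replicate block WAPL fell by 0.41 on the log2 scale (edgeR adjusted p = 1.91e-05).

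NIPBL was at 49.9, 45.7, 45.6, 90.6 and 94.6 CPM in knockout replicates, against 53.4, 58.5, 56.0, 90.6 and 89.1 CPM in parental replicates. The shallow knockout libraries were below the shallow parental ones, and the deep libraries of the genotypes overlapped. NIPBL did not pass over all libraries (log2 fold change -0.091, edgeR adjusted p = 0.843) or with the replicate block (-0.13, edgeR adjusted p = 0.113). In the shallow libraries alone its log2 fold change was -0.26 (edgeR adjusted p = 0.00134), and in the deep ones alone 0.026 (edgeR adjusted p = 0.405). The difference between the classes, tested as an interaction of genotype and depth class, was 0.29 on the log2 scale and did not pass (edgeR adjusted p = 0.0835); this interaction was called for 0.601% of all genes and for 0 of the 10 regulators, of which 3 had an unadjusted p under 0.05.

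The balance of WAPL to NIPBL within a library does not depend on library scaling and was looked at after these values were seen, so it has no test. The log2 ratio averaged 0.84 ± 0.23 in knockout and 1.12 ± 0.11 in parental cells (SD, n = 5 each), a difference of -0.27, which was -0.18 among shallow and -0.41 among deep libraries. The log2 ratio of SMC1A to SMC3, the arms that pair with each other, averaged 0.13 ± 0.19 in knockout and 0.21 ± 0.20 in parental cells, a difference of -0.085, which was -0.094 among shallow and -0.070 among deep libraries. In each of these ratios, WAPL to NIPBL and SMC1A to SMC3, the genotypes did not overlap within either class, and overlapped over all libraries.

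CTCF (ENSG00000102974.16, chromosome 16, 67562407 to 67639185) differed by a small amount. CTCF was at 98.3, 92.8, 91.2, 98.1 and 96.6 CPM in knockout replicates, against 99.8, 103, 104, 107 and 106 CPM in parental replicates. The genotypes did not overlap, the knockout mean was 91.8% of the parental mean, and the two-sided exact permutation gave p = 0.00794. Its log2 fold change of -0.12 ± 0.050 did not pass (edgeR adjusted p = 0.0786), and passed with the replicate block (-0.12, edgeR adjusted p = 0.0136). With library sizes alone as the scale the log2 fold change was -0.066 (edgeR adjusted p = 0.428), and with DESeq2 size factors -0.15 (edgeR adjusted p = 0.0360).

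CTCFL (ENSG00000124092.13, chromosome 20, 57495966 to 57525652), also called BORIS, is normally made in male germ cells and binds much the same DNA as CTCF. It was near the limit of detection in both genotypes, with 165 counts over the 5 knockout libraries and 158 over the 5 parental ones. CTCFL was at 0.0186, 0.0385, 0.216, 0.160 and 0.283 CPM in knockout replicates, against 0.157, 0.106, 0.212, 0.214 and 0.154 CPM in parental replicates. The genotypes overlapped in both classes, with the lowest and the highest library both in the knockout group (log2 fold change -0.15 ± 0.54, edgeR adjusted p = 0.871). Of 10 male germ cell markers 9 stayed under 1 CPM in every library, and the exception, STRA8, reached 1.08 CPM. The 10 markers summed to 0.616 to 1.24 CPM in knockout and 0.159 to 0.194 CPM in parental shallow libraries, and to 0.265 to 0.286 CPM in knockout and 0.241 to 0.301 CPM in parental deep libraries, and their part in the values of CTCFL was not tested. Whether reads of these paralogs were divided between them by the authors' estimation was not tested.

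Of the silencers, SETDB1 (ENSG00000143379.13, chromosome 1, 150926263 to 150964744) rose, and it was the only one of the 10 genes called higher in the fit with genotype alone. SETDB1 was at 20.3, 19.7, 20.5, 21.99 and 23.7 CPM in knockout replicates, against 16.7, 18.7, 17.0, 18.6 and 18.2 CPM in parental replicates. All knockout libraries lay above all parental ones, at a mean of 21.3 ± 1.59 CPM in knockout and 17.8 ± 0.921 CPM in parental cells (SD, n = 5 each). SETDB1 rose by 0.25 ± 0.069 on the log2 scale (edgeR adjusted p = 0.0151; two-sided exact permutation p = 0.00794). The call was lost with no filter on low counts (edgeR adjusted p = 0.140). SETDB1 shares 948 exon bases with CERS2, a ceramide synthase gene on the opposite strand at 199 ± 10.8 CPM in knockout and 214 ± 4.20 CPM in parental cells (SD, n = 5 each). Whether counting used the strand is not known here, so the level of SETDB1 is uncertain. CERS2 itself had a log2 fold change of -0.11 in the fit with genotype alone (edgeR adjusted p = 0.151). With the replicate block it was -0.11 and passed (edgeR adjusted p = 0.0477).

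TRIM28 (ENSG00000130726.12, chromosome 19, 58544091 to 58550722), which recruits SETDB1, was lower in knockout cells in the deep libraries and not in the shallow ones. TRIM28 was at 809, 703, 816, 472 and 468 CPM in knockout replicates, against 716, 665, 798, 549 and 532 CPM in parental replicates. The genotypes overlapped in the shallow libraries, while both deep knockout libraries were below both deep parental ones. Over all libraries TRIM28 differed by 0.0043 ± 0.19 on the log2 scale (edgeR adjusted p = 0.991). It was 0.089 in the shallow libraries alone (edgeR adjusted p = 0.370) and -0.22 in the deep ones alone (edgeR adjusted p = 2.65e-06), and the interaction of genotype and depth class did not pass (edgeR adjusted p = 0.186).

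SMCHD1 (ENSG00000101596.17, chromosome 18, 2655738 to 2805017) had the largest log2 fold change of the 10 genes in the fit with genotype alone (-0.60, beside -0.54 for SMC1A) and a wide spread between libraries. With chromosome medians subtracted SMC1A had the larger one, at -0.58, beside -0.53 for SMCHD1. SMCHD1 was at 52.0, 47.8, 44.1, 91.1 and 93.7 CPM in knockout replicates, against 75.5, 82.0, 78.1, 133 and 129 CPM in parental replicates. Within each class every knockout library was below every parental one, and the knockout mean was 66.1% of the parental mean. Its log2 fold change of -0.60 ± 0.27 did not pass (edgeR adjusted p = 0.113). With the replicate block SMCHD1 fell by 0.63 on the log2 scale (edgeR adjusted p = 8.21e-06). Within the shallow class the value was -0.72 and within the deep class -0.52.

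Counted together, 1 regulator rose and 1 fell in the fit with genotype alone, in which 36.6% of all 18979 genes were called, 19.7% higher and 16.9% lower. With the replicate block 1 rose and 6 fell, beside 61.2% of all genes called, 31.1% higher and 30.1% lower. The 7 of 10 called in either direction is near that background. By direction, the 6 lower lie above the share of all genes and the 1 higher below it, a difference that was not tested. With depth class as a term 1 rose and 6 fell (64.0% of all genes called), and with chromosome medians subtracted as well 1 rose and 8 fell (61.8%). The shallow libraries alone gave 1 higher and 6 lower of 9 tested (52.7% of all genes), and the deep ones alone 1 higher and 7 lower (57.0%). Chromosome medians subtracted from the fit with genotype alone gave 1 higher and 2 lower (33.5%), and DESeq2 gave 1 higher and 5 lower (41.3%). The genotypes did not overlap for 2 regulators that were lower and 1 that was higher, beside 14.6% and 16.0% of all genes. Within both depth classes at once, 6 were lower and 1 higher without overlap, beside 26.9% and 27.1% of all genes. The median log2 fold change was -0.22 over the 10 regulators and 0.017 over all genes.

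**Figure D2:**
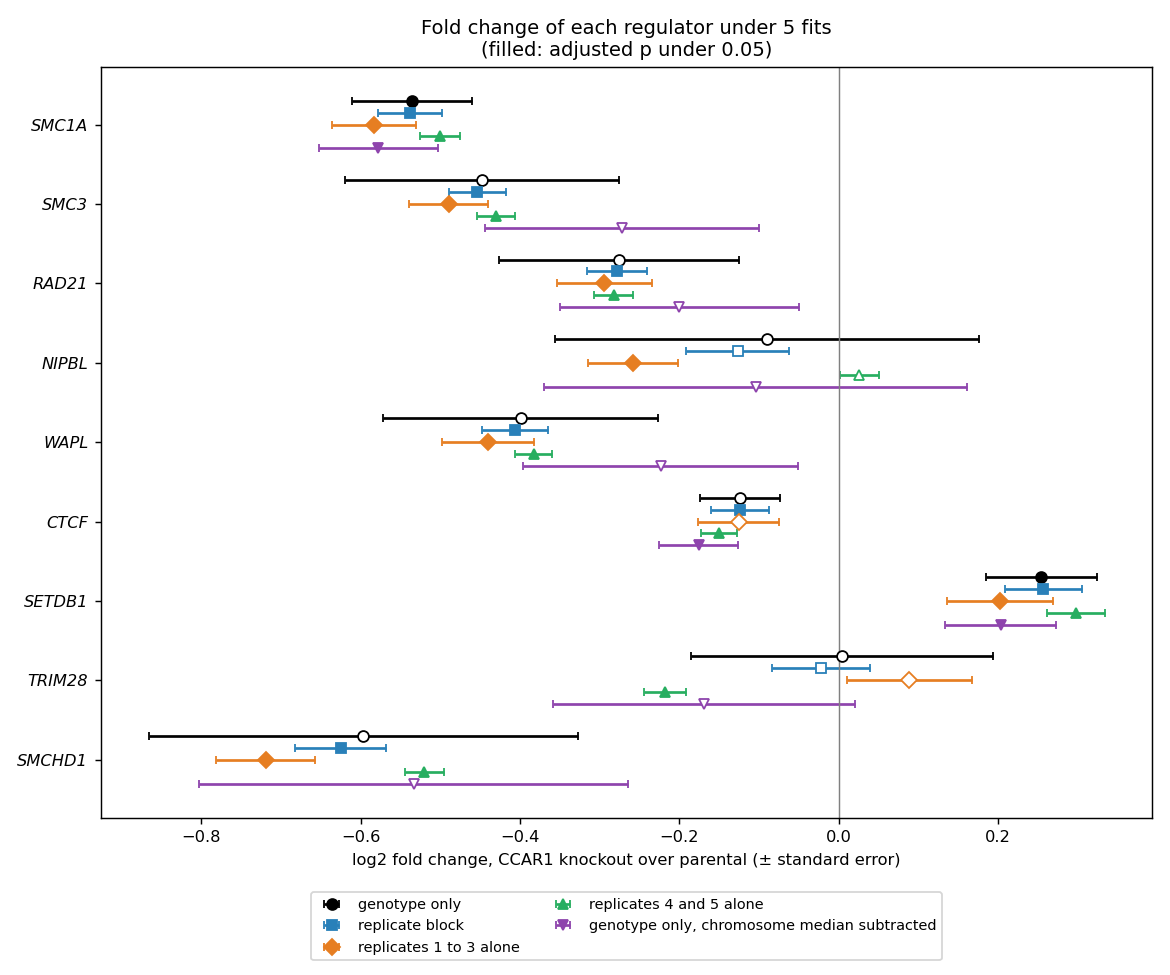
Log2 fold change of knockout over parental (± standard error) for 9 regulators under 5 fits, with filled points at an adjusted p under 0.05; CTCFL is left out because it failed the low-count filter in the shallow libraries alone. SMC1A lies between -0.58 and -0.50 and SETDB1 between 0.20 and 0.30 under all 5 fits, and the standard errors of SMC3, RAD21, WAPL and SMCHD1 shrink once depth is accounted for.

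SMC3 and WAPL are encoded on chromosome 10, as is CCAR1, and the 541 protein-coding genes tested there had a median log2 fold change of -0.18. With chromosome medians subtracted from the fit with genotype alone, the log2 fold change was -0.27 for SMC3 and -0.22 for WAPL, neither past the threshold (edgeR adjusted p = 0.270 and 0.376). With depth class as a term as well, both fell, by 0.28 and 0.23 on the log2 scale (edgeR adjusted p = 2.57e-06 and 1.45e-04). On the chromosomes of SMC1A (X), SETDB1 (1), CTCF (16) and SMCHD1 (18) the medians were 0.043, 0.051, 0.052 and -0.064. TRIM28 is on chromosome 19, whose median was 0.17, and with depth class as a term and this median subtracted it was lower (log2 fold change -0.20, edgeR adjusted p = 0.0210).

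Levels of several regulators also differed between the depth classes. Deep libraries held 1.97 times the shallow level of NIPBL in knockout and 1.61 times in parental cells, and 1.93 and 1.67 times that of SMCHD1. For SMC3, WAPL and RAD21 the deep level was 1.39 to 1.49 times the shallow one in knockout cells and 1.37 to 1.42 times in parental cells. TRIM28 went the other way, at 0.606 times in knockout and 0.744 times in parental cells. CTCF moved least, at 1.03 times in knockout and 1.04 times in parental cells. What sets the classes apart is not given in the labels.

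Per kilobase of annotated exon, TRIM28 was the most abundant regulator, at 162 ± 43.0 CPM per kilobase in knockout and 162 ± 27.9 in parental cells (SD, n = 5 each). In parental cells RAD21 and SMC3 followed at 60.9 ± 10.7 and 55.3 ± 10.9 CPM per kilobase, with ranges that overlapped. SMC1A and WAPL, at 25.7 ± 1.42 and 20.6 ± 4.01 CPM per kilobase, also overlapped. CTCF, SMCHD1 and NIPBL, at 10.2 ± 0.287, 8.001 ± 2.32 and 5.55 ± 1.49 CPM per kilobase, overlapped each with the next. SETDB1 stood below them at 2.51 ± 0.130 and CTCFL lowest at 0.0189 ± 0.00508 CPM per kilobase. The lengths are the union of all annotated exons and can exceed the transcript made in these cells.

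**Figure D3:**
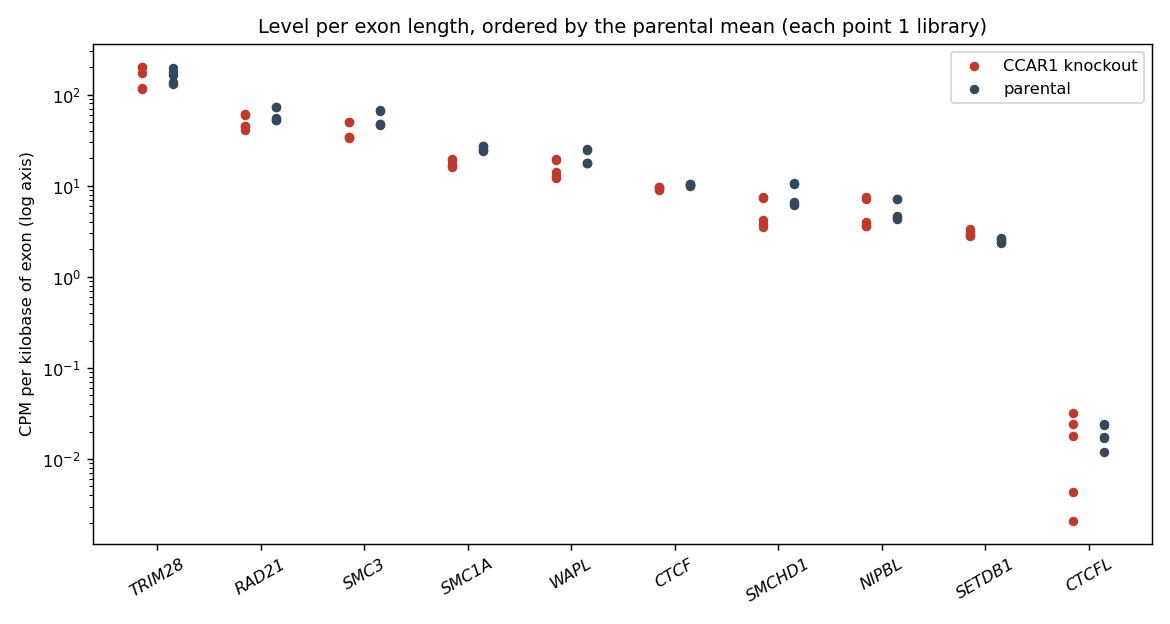
CPM per kilobase of annotated exon on a log axis, ordered by the parental mean, with each library as a point and CCAR1 knockout left of parental. TRIM28 is highest and CTCFL lowest, with SETDB1 next above it.

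Related genes on lists chosen by role were read from the same fit. Over all genes, DESeq2 called 20.8% lower and 20.5% higher and limma-voom called 38.1%, with 17.6% lower and 20.6% higher. An unadjusted edgeR p under 0.05 was reached with a lower level by 20.7% of all genes and with a higher level by 23.8%. Of 5 other cohesin subunits tested, 0 rose and 2 fell in the edgeR fit, beside 19.7% and 16.9% of all genes, with 3 not passing, and with the replicate block 1 rose and 2 fell, beside 31.1% and 30.1%. STAG1, an alternative subunit that sits on the ring, was at 53.8 ± 13.8 CPM in knockout and 87.1 ± 18.4 CPM in parental cells (SD, n = 5 each; edgeR adjusted p = 0.0162). RAD21L1, a meiotic kleisin, was at 0.960 ± 0.361 and 2.00 ± 0.577 CPM in knockout and parental cells (edgeR adjusted p = 0.0136).

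Among 18 genes of cohesin loading, release and cohesion, 5 fell and 0 rose in the edgeR fit, beside 16.9% and 19.7% of all genes, and 10 fell and 1 rose with the replicate block, beside 30.1% and 31.1%. CDCA5, or sororin, which protects cohesin from WAPL, was at 134 ± 8.21 CPM in knockout and 170.5 ± 4.68 CPM in parental cells (SD, n = 5 each; edgeR adjusted p = 7.56e-04). The helicase DDX11 was at 84.9 ± 8.49 CPM in knockout and 123 ± 10.1 CPM in parental cells (edgeR adjusted p = 6.67e-04). The kinase HASPIN was at 12.9 ± 1.31 CPM in knockout and 20.5 ± 1.11 CPM in parental cells (edgeR adjusted p = 1.05e-04). HASPIN is on chromosome 17, where the median was -0.28, and its log2 fold change of -0.67 was -0.39 with that median subtracted. The list's median was -0.15, beside 0.017 over all genes. For this list and the other cohesin subunits 0 genes were higher at an unadjusted p under 0.05 in edgeR, and 0 by DESeq2 and limma-voom after adjustment.

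Condensins and the SMC5/6 complex are built on kindred SMC arms. Of 14 such genes 6 fell and 2 rose in the edgeR fit, where 16.9% and 19.7% of all genes did. With the replicate block 9 fell and 3 rose, beside 30.1% and 31.1% of all genes, and the median log2 fold change was -0.28 in the fit with genotype alone. NCAPG2, on chromosome 7, was at 117 ± 15.4 CPM in knockout and 212 ± 25.4 CPM in parental cells (SD, n = 5 each; edgeR adjusted p = 1.52e-04), and its log2 fold change of -0.86 was -0.56 with the chromosome median subtracted. NCAPD2 was at 248 ± 23.7 CPM in knockout and 368 ± 16.7 CPM in parental cells (edgeR adjusted p = 1.61e-04). NCAPD3 was at 115 ± 11.99 CPM in knockout and 166 ± 10.8 CPM in parental cells (edgeR adjusted p = 5.12e-04). These are non-SMC subunits of the condensins. In the other direction, NSMCE3 of the SMC5/6 complex rose 2.31-fold to 22.5 ± 3.78 CPM in knockout, against 9.75 ± 0.513 CPM in parental cells (edgeR adjusted p = 1.90e-05). NSMCE1 was at 25.5 ± 4.21 CPM in knockout and 20.5 ± 1.45 CPM in parental cells (edgeR adjusted p = 0.0494), a call that was lost with chromosome medians subtracted (edgeR adjusted p = 0.1002).

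Of 17 CTCF partners and insulator factors 4 fell and 0 rose in the edgeR fit, a share of lower genes close to the 16.9% of all genes, of which 19.7% were higher. With the replicate block 10 fell and 2 rose, beside 30.1% and 31.1%, and the median log2 fold change was -0.14 in the fit with genotype alone. BRD2, a bromodomain protein encoded on chromosome 6, was at 157 ± 3.49 CPM in knockout and 229.9 ± 2.36 CPM in parental cells (SD, n = 5 each; edgeR adjusted p = 5.64e-06). The median of chromosome 6 was -0.32, and the log2 fold change of BRD2 was -0.55 before and -0.23 after it was subtracted. TOP2B, a topoisomerase found at loop anchors, was at 94.6 ± 13.5 CPM in knockout and 156 ± 19.0 CPM in parental cells (edgeR adjusted p = 6.34e-04). PARP1, a poly(ADP-ribose) polymerase, was at 173 ± 9.27 CPM in knockout and 212 ± 5.37 CPM in parental cells (edgeR adjusted p = 0.00156). At an unadjusted p under 0.05, 5 of these genes were lower and 0 higher in edgeR, and DESeq2 and limma-voom called 6 and 5 lower and 0 higher.

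Partners of SETDB1 and TRIM28, the HUSH complex and the HP1 proteins gave 12 lower and 0 higher of 28 in the edgeR fit, beside 16.9% and 19.7% of all genes, and 21 lower and 2 higher with the replicate block, beside 30.1% and 31.1%. With chromosome medians subtracted 8 were lower and 1 higher, beside 13.5% and 20.0%. The subtraction lost 6 of the 12 calls, those of CBX3, CHD3, DAXX, PPHLN1, SUMO2 and SUV39H2. The gene called higher was EHMT2, an H3K9 methyltransferase on chromosome 6 named here after its values were seen. EHMT2 had a log2 fold change of 0.16 in the fit with genotype alone (edgeR adjusted p = 0.270), 0.49 after the subtraction (edgeR adjusted p = 0.00506) and 0.16 with the block (edgeR adjusted p = 0.00376). The median log2 fold change of the list was -0.20. At an unadjusted p under 0.05, 16 were lower and 0 higher in edgeR (20.7% and 23.8% of all genes), and DESeq2 and limma-voom called 16 and 13 lower and 0 higher. The HP1 protein CBX1, on chromosome 17, was at 265 ± 11.0 CPM in knockout and 421 ± 9.49 CPM in parental cells (SD, n = 5 each; edgeR adjusted p = 3.26e-06), and its log2 fold change of -0.67 was -0.39 with the chromosome median subtracted. The deacetylase HDAC2, on chromosome 6, was at 146 ± 14.3 CPM in knockout and 222 ± 26.5 CPM in parental cells (edgeR adjusted p = 7.21e-04), with a log2 fold change of -0.60 that was -0.28 after the subtraction. CHD3, a remodeller on chromosome 17, was at 186 ± 9.12 CPM in knockout and 228 ± 8.27 CPM in parental cells (edgeR adjusted p = 0.00155). With the chromosome median subtracted its log2 fold change was -0.014 and its call was lost (edgeR adjusted p = 0.885).

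The clustered protocadherins of chromosome 5 that could be tested were mostly higher. Whether the regulators acted on them in these cells was not tested. In the edgeR fit 13 of 14 beta genes tested and 13 of 19 gamma genes tested rose with 0 falling, beside 19.7% of all genes higher and 16.9% lower, and of 15 alpha genes 1 was tested and did not pass. The filter on low counts keeps a gene that reaches the minimum in 1 genotype alone. PCDHB3, at 0.507 CPM in knockout and 0.00734 CPM in parental cells, and PCDHB8, at 8.32 and 0.0616 CPM, entered through the knockout group. PCDHB2, PCDHB5 and PCDHB7, at 0.135, 0.0754 and 0.0814 CPM in parental cells, did so too. So did the gamma genes PCDHGA9, PCDHGA10 and PCDHGB3, whose lowest parental libraries were at 0.142, 0.106 and 0.106 CPM. Such genes could only be called higher, so the counts of beta and gamma genes that rose partly follow from the filter. PCDHB9 was at 3.65 ± 0.289 CPM in knockout and 0.265 ± 0.0495 CPM in parental cells, and PCDHGA7 at 21.8 ± 1.82 and 6.75 ± 0.559 CPM (SD, n = 5 each; edgeR adjusted p = 3.89e-08 and 2.26e-07). At an unadjusted p under 0.05, 0 of these genes were lower in edgeR, and 1 gamma gene was called lower by DESeq2 and with the replicate block. Isoforms of a cluster are similar in sequence, and those within the alpha and within the gamma cluster share 3′ exons, so reads can be divided among them.

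**Figure D4:**
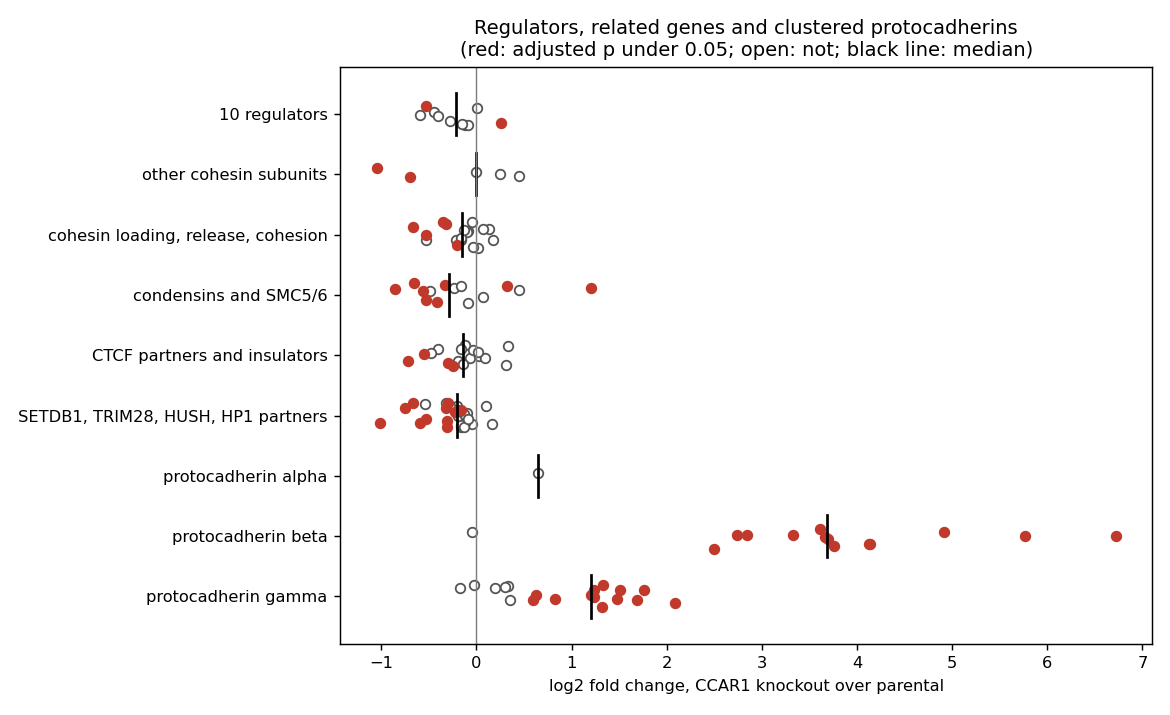
Log2 fold change of knockout over parental in the fit with genotype alone, each point a gene, red at an adjusted p under 0.05 and open otherwise, with a black line at each list's median. The regulators and their partner lists have medians between -0.28 and 0.0002, while the beta and gamma protocadherins have medians of 3.68 and 1.199. The beta and gamma medians include genes with few counts in parental cells that passed the low-count filter through the knockout group.

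The genes most like the 3 regulators with the smallest adjusted p were found by the root mean square distance of log2 CPM over the 10 libraries, after removing each gene's mean. For SMC1A these were NCAPD3, NCAPD2 and SAMD4A, at distances of 0.023, 0.033 and 0.034, against a median of 0.42 over all genes. For SMC3 they were DBF4, AP3M1 and DDX21, at 0.023, 0.029 and 0.033, against a median of 0.47. AP3M1 and DDX21 are on chromosome 10, as is SMC3, and DBF4 is on chromosome 7. The median log2 fold changes of these chromosomes were -0.18 and -0.30, and their part in the likeness was not tested. For SETDB1 the nearest were MPPE1 and GZF1, both at 0.051, and a gene without a symbol, against a median of 0.36.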

How the data were processed

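The deposited table gives an estimated count per gene and library, made by the authors and unscaled. The submitters' processing notes name kallisto 0.48.0 and hg38; the annotation release, any step from transcripts to genes and the strand setting were not stated. Libraries were poly(A)-enriched and sequenced on a NovaSeq, per the labels' protocols. Rounded counts were filtered with edgeR's filterByExpr (minimum count 10, genotype as group), which left 18979 of 62700 genes, scaled by TMM and fitted with the quasi-likelihood test of edgeR 4.0.16 (R 4.3.3, robust dispersion, genotype as term), Benjamini-Hochberg adjustment at 0.05. Exact permutation tests used log2 CPM (prior count 3) and were two-sided. Alternatives were DESeq2 1.42.0, limma 3.58.1 (voom), other scalings and filters, the replicate block, depth class as a term, each class alone, the deep libraries thinned, chromosome medians subtracted and each library left out; the depth term together with chromosome medians was added after seeing the data.

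Positions, exon lengths and chromosome medians of protein-coding genes came from GENCODE 29 (GRCh38), matched by gene ID for 95.1% of genes tested. Samples with the same number shared deviations from the group means (correlations across genes of 0.584 to 0.899). Other numbers of the same depth did so as much (0.594 to 0.901), and samples of different depth did not (-0.776 to -0.725). The group means span both depth classes, which by itself makes libraries of the same depth alike. The check therefore does not pair samples by number beyond their depth class. Libraries of the same genotype and depth differed by more than sampling noise, so none was merged. The 10 regulators and the lists of related genes were chosen with earlier results of these data known, and they are described by counts and medians with no set test. Named genes are the 10 regulators, CCAR1, from each list up to 3 genes in each direction with the smallest adjusted p (for the protocadherins, 1 per cluster is printed), and the nearest patterns.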

Additional observations from a re-analysis of the deposited data

How the results depend on the processing

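SMC1A was called lower under all 24 alternatives and SETDB1 was called higher under 23 of 24. The exception was no filter on low counts, where SETDB1 kept a log2 fold change of 0.24 and lost its call (edgeR adjusted p = 0.140). That setting left 0 regulators called higher by edgeR (1 at an unadjusted p under 0.05). With each library left out in turn, 3318 to 3709 genes were higher and 2765 to 3196 lower, with 1 regulator higher and 1 to 2 lower. Genes called higher numbered 5906 with the replicate block, 6200 with depth class as a term, 7775 in the deep libraries alone and 6359 with depth class and chromosome medians together. Genes called lower numbered 5713, 5949, 7545 and 5371 under the same settings and 4931 in the shallow libraries alone. The genes tested numbered 18979, but 26859 in the deep libraries alone and 18806 in the shallow ones alone. Regulators called lower numbered 6 with the replicate block (30.1% of all genes) and with depth class as a term (5949 genes). In the shallow libraries alone they were 6 of 9 tested (4931 genes). They numbered 7 in the deep libraries alone (7545 genes) and 8 with depth class and chromosome medians together (5371 genes). They numbered 5 by DESeq2 (20.8% of all genes), 3 with DESeq2 size factors (3499 genes) and 2 with chromosome medians subtracted (13.5%).

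Some regulators near 0 changed direction. NIPBL was at a log2 fold change of 0.026 in the deep libraries alone and ran from -0.26 to 0.021 with a library left out. CTCFL was at 0.24 in the deep libraries alone and ran from -0.29 to 0.074 with a library left out, in the removals where it could be fitted. TRIM28 was at -0.025 with DESeq2 size factors and with DESeq2, -0.012 with no filter, -0.037 with limma-voom, -0.022 with the replicate block, -0.023 with depth class as a term, -0.22 in the deep libraries alone, -0.17 with chromosome medians subtracted, -0.20 with depth class and chromosome medians together, and ran from -0.095 to 0.104 with a library left out. The cause of these changes was not tested. CTCFL could not be fitted in the shallow libraries alone, with the deep libraries thinned or at 1 CPM in 5 libraries, where it failed the filter. It also failed the filter without knockout replicate 5 and without parental replicate 4. At the shallow depth its counts of 1 to 12 per library set the precision.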
